A study of Mus musculus with 14 samples.

Results

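The genes described here are 38 genes of mitosis and chromosome segregation, listed by name for their known roles. The list was drawn up with earlier results of these data known. They were matched by gene symbol to the Ensembl identifiers of the counted genes. The matched genes are 38 of the 55421 genes listed for set 1 and 38 of the 17490 listed for set 2. All 38 passed the filter on low counts in both sets, with at least 147 counts in every library. They were grouped by role into 7 kinases and cyclins of mitotic entry, 8 genes of the spindle checkpoint and anaphase onset, 7 kinetochore and centromere genes, 4 genes of the chromosomal passenger complex, 6 condensin and chromosome structure genes, and 6 spindle motor and cytokinesis genes.

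A dividing cell enters mitosis when cyclin B bound to Cdk1 reaches full activity, and condensin and topoisomerase then shape each chromosome into a compact rod. Kinetochores, built on centromeric chromatin, attach the chromosomes to spindle microtubules, and the spindle checkpoint holds back the anaphase promoting complex until all of them are attached. The complex then marks securin and the B cyclins for destruction, separase cuts cohesin, and the central spindle guides cytokinesis. Most of these genes are transcribed late in the cell cycle, through promoters with CHR and CCAAT elements bound by the MuvB complex, B-Myb, FoxM1 and NF-Y. In the small intestine the cells that divide are the stem and transit-amplifying cells of the crypt.

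Poly(A) RNA was sequenced from mouse small-intestinal tumor organoids that the labels call APT organoids. The tested organoids carried a doxycycline-inducible short hairpin RNA against Suv4-20h2, and the controls carried a control hairpin titled shCtrl. Suv4-20h2, listed under the symbol Kmt5c, is a histone H4 lysine methyltransferase of heterochromatin. Heterochromatin lies around the centromeric chromatin on which kinetochores are built. Hairpin 1 targeted exon 4 and had 3 libraries against 3 of control 1 (set 1). Hairpin 2 targeted exon 9 and had 4 libraries against 4 of control 2 (set 2). All 4 groups, controls included, were kept for 4 days in 0.5 µg/ml doxycycline. The design text calls the hairpins clone 1 and clone 2, so each hairpin may stand for a single organoid line. Set and hairpin coincide and no library is shared, so a batch and a hairpin cannot be told apart. The labels do not give the origin of the replicates, so a p-value here sets a difference against library spread that could be technical.

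Total counts ran from 9272134 to 26284079 per library, and the 38 genes together took 0.352 to 0.491% of them. The targeted gene Kmt5c had 58.0 ± 5.59 CPM (counts scaled to the size of the library) with hairpin 1 and 71.8 ± 4.25 CPM in control 1 (SD, n = 3 each). It had 108 ± 6.40 CPM with hairpin 2 and 124 ± 6.41 CPM in control 2 (SD, n = 4 each). Its log2 fold changes of -0.31 and -0.20 had adjusted p-values of 0.80 and 0.098, and with the replicate block described below the p for hairpin 2 was 0.0074. Hairpin 1 replicate 1 stood apart from the rest of set 1, and both replicate 4 libraries stood apart in set 2. Immune markers summed to at most 2.91 CPM in any library of set 1 and 0.762 CPM in set 2, and fibroblast markers to at most 10.1 CPM and 15.8 CPM. Of the defining markers of other cell types, Dcn, Lum, Thy1 and Emcn were at 0 in every library of set 1. The endothelial marker Vwf had 64.7, 65.3 and 77.1 CPM with hairpin 1 and 217, 110 and 228 CPM in control 1 (adjusted p = 0.80). Cdh5, another endothelial marker, had 49.6 CPM in hairpin 1 replicate 1 and at most 2.15 CPM in any other library of set 1.

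The 38 genes were expressed at moderate to high levels in every library. In set 2 the control means ran from 20.7 CPM for Pttg1, which encodes securin, to 608 CPM for Top2a, which encodes DNA topoisomerase II alpha. In set 1 the highest control mean was 419 CPM, again for Top2a, and the lowest was 23.1 CPM for Pttg1. Per kilobase of merged exons, the control 2 levels were highest for Top2a at 67.4 CPM per kb, Cdc20 at 66.5 CPM per kb and Ccnb2 at 54.3 CPM per kb. They were lowest for the kinetochore genes Ndc80 at 4.84 CPM per kb and Nuf2 at 5.85 CPM per kb. In control 1, Cdc20 led with 120 CPM per kb, followed by Incenp at 62.0 CPM per kb and Ccnb2 at 61.6 CPM per kb. Espl1, which encodes separase, was lowest there at 4.59 CPM per kb. The sets were not tested against each other.

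With hairpin 2, the mitosis genes kept close to their control levels, and Kif23, which encodes the central spindle motor MKLP1, was the 1 gene of the 38 that fell. The 1 of 38 past an edgeR adjusted p of 0.05 is 2.63%, against 6.05% of the 14126 genes tested (854 genes). Of these 854, 288 genes rose (2.04% of those tested) and 566 fell (4.01%). The log2 fold changes of the 38 genes ran from -0.36 to 0.23 with a median of -0.04, and the median over all genes tested was 0.00. They lay below 0 for 29 genes and above 0 for 9. The median size of change was 0.06 on the log2 scale among the 38 and 0.10 among the 10457 genes that averaged 5 CPM or more. None of the 38 changed over 2-fold, against 1.10% of those 10457 genes.

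The 95% interval lay within 0.5 of 0 on the log2 scale for 35 of the 38 genes and within 1 of 0 for all 38. A limit of 0.5 is wide beside the changes of this comparison. Their size had a 90th percentile of 0.20 among the 38 and 0.30 among the 10457 genes that averaged 5 CPM or more. The standard errors of the 38 ran from 0.054 to 0.196, with a median of 0.102, against 0.087 among those 10457 genes. At an unadjusted p under 0.05 stood 3 of the 38 genes (7.89%), against 19.8% of all genes tested. The hairpin 2 and control 2 libraries did not overlap for 2 of the 38 genes (5.26%), Kif23 and Bub3, both lower with hairpin 2, against 15.3% of all genes tested. Libraries with the same replicate number deviated together in set 2, chiefly those of replicate 4. The fit with the replicate number as a block called 4 of the 38 genes (10.5%), against 20.4% of all genes tested (10.2% rose and 10.1% fell). Those were Kif23 and Espl1, both lower with hairpin 2, and Ccnb1 and Ndc80, both higher.

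**Figure D1:**
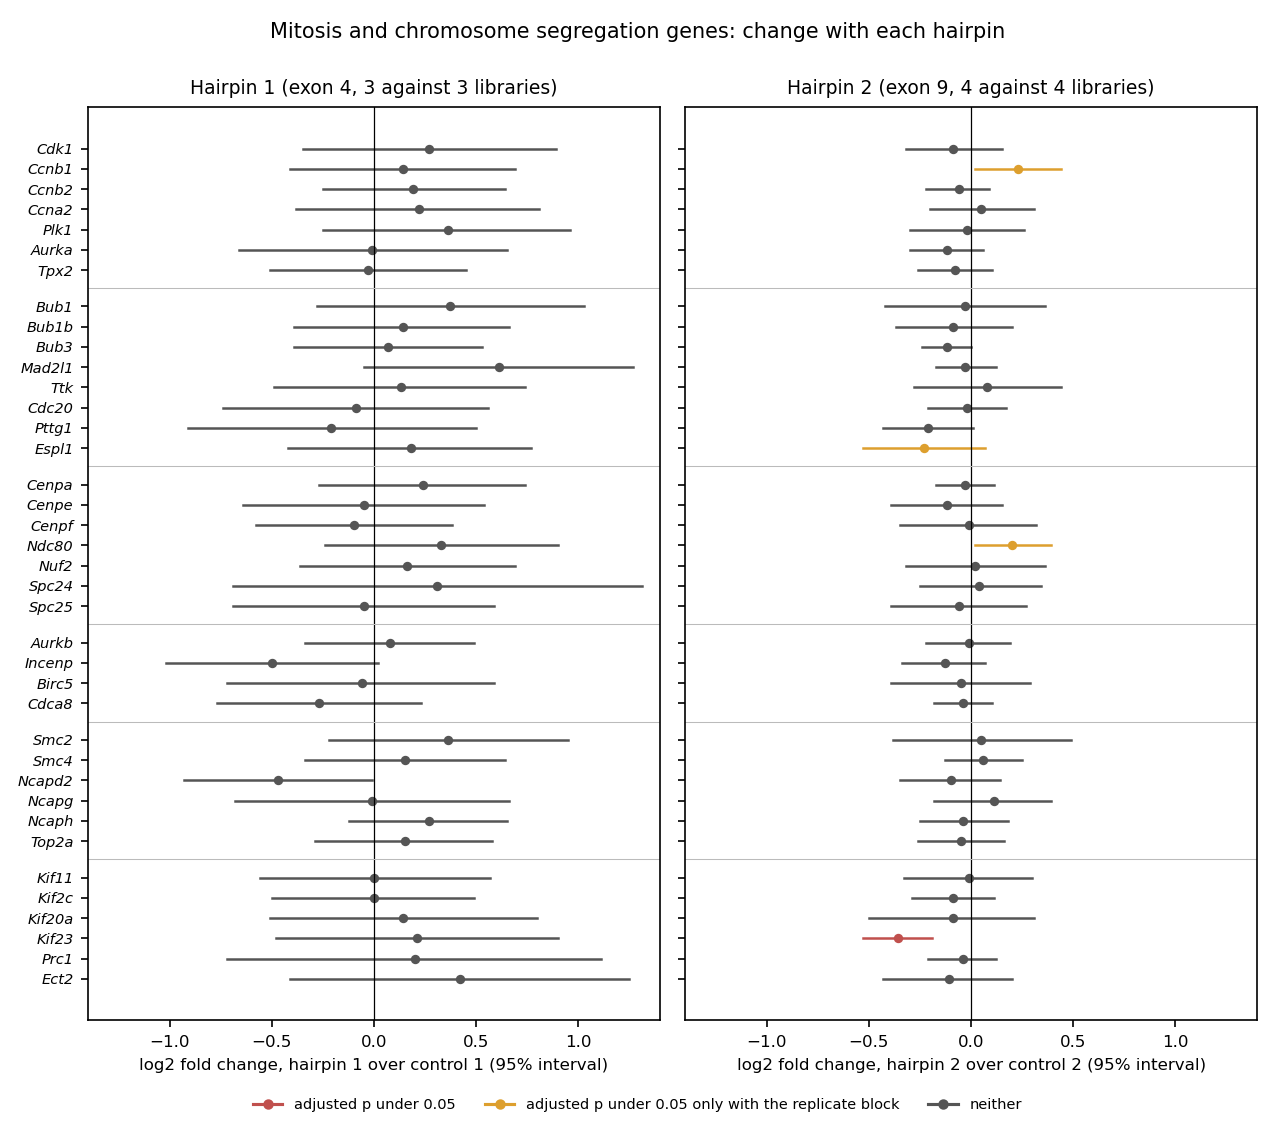
Log2 fold change of each of the 38 genes (points) with its 95% interval (lines), for hairpin 1 over control 1 on the left and hairpin 2 over control 2 on the right, grouped by role. With hairpin 2 the intervals are mostly shorter than with hairpin 1, and only Kif23, in red, passes without the replicate block. Ccnb1, Espl1 and Ndc80, in yellow, pass with the block alone, and no gene passes for hairpin 1.

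Among the spindle motors and cytokinesis genes, all 6 had estimates below 0 with hairpin 2. Kif23 (GRCm38 chr9:61915905-61946774, minus strand) encodes the motor subunit of centralspindlin, which bundles the microtubules between the separating chromosomes. It had 68.6, 71.1, 75.5 and 59.9 CPM in the hairpin 2 libraries and 87.0, 92.1, 91.6 and 82.0 CPM in the control 2 libraries. Every hairpin 2 library lay below the lowest control. The log2 fold change was -0.36 (SE 0.076, 95% interval -0.53 to -0.19), with an edgeR adjusted p of 0.021, and 0.00027 with the replicate block. Leaving out 1 library at a time kept the estimate between -0.40 and -0.30, and the call held in 3 of 8 such fits, with adjusted p-values of 0.013 to 0.083. Taking off the median of the other genes on chromosome 9 left -0.34.

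The other 5 genes of that group did not pass. Ect2, an exchange factor that centralspindlin recruits to the site of cleavage, had a log2 fold change of -0.11 (adjusted p = 0.73). Prc1, a microtubule bundler of the same midzone, had -0.04 (adjusted p = 0.82). Kif20a, a motor that brings the passenger complex to the midzone, had -0.09, Kif2c, which depolymerises microtubules, -0.09, and Kif11, which pushes the spindle poles apart, -0.01. About 25.2% of the 50-base stretches of the annotated Kif20a transcripts also lie in transcripts of Cdc23, on either strand. For Prc1, 9.77% lie in other genes, chiefly Rccd1. The libraries were stranded, so matches on the opposite strand could be told apart, and how many reads were open to both genes was not measured. Kif23 shared 0.470% of its stretches.

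Of the 8 spindle checkpoint and anaphase genes, 7 had estimates below 0 with hairpin 2, and the 1 that passed, with the block alone, was Espl1. Espl1 (chr15:102296266-102324357, plus strand) encodes separase, the protease that cuts cohesin at anaphase. It had 60.9, 67.4, 63.6 and 42.3 CPM with hairpin 2 and 64.6, 79.8, 69.2 and 62.4 CPM in control 2. The groups overlapped, and within each pair of the same number the hairpin 2 library was the lower one. The log2 fold change was -0.23 (SE 0.135, adjusted p = 0.39), and with the block it was -0.25 (adjusted p = 0.027). Without the block, the estimate was -0.11 when hairpin 2 replicate 4 was left out, and -0.15 (adjusted p = 0.16) without both replicate 4 libraries. Securin, the inhibitor of separase encoded by Pttg1, was also lower in 4 of 4 pairs, with -0.21, but did not pass (adjusted p = 0.27, and 0.064 with the block). Bub3, which carries the checkpoint kinases to kinetochores, had 117, 123, 111 and 122 CPM with hairpin 2 and 124, 133, 126 and 131 CPM in control 2. Its libraries did not overlap, but its log2 fold change of -0.12 did not pass (adjusted p = 0.27). The checkpoint kinases and effectors Bub1, Bub1b, Mad2l1, Ttk and Cdc20 had estimates between -0.09 and 0.08.

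Ndc80 was the kinetochore gene with the largest estimate with hairpin 2, and the 1 of the 7 that passed, with the block alone. Ndc80 (chr17:71496100-71526857, minus strand) encodes a microtubule-binding subunit of the outer kinetochore complex that bears its name. It had 33.9, 34.8, 39.1 and 37.1 CPM with hairpin 2 and 29.6, 33.2, 34.6 and 28.3 CPM in control 2. The groups overlapped, with the hairpin 2 library higher in 4 of 4 pairs. The log2 fold change was 0.20 (SE 0.083, adjusted p = 0.21), and with the block it was again 0.20 (adjusted p = 0.041). Without both replicate 4 libraries it was 0.13 (adjusted p = 0.25). The other subunits of the same complex did not pass: Nuf2 had 0.02, Spc24 0.04 and Spc25 -0.06, with adjusted p-values of 0.88 to 0.96. Cenpa, the histone H3 variant that marks centromeres, had -0.03 (95% interval -0.17 to 0.11), and the large kinetochore proteins Cenpe and Cenpf had -0.12 and -0.01.

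Cyclin B1 was the 1 gene of mitotic entry that passed with hairpin 2, again with the block alone. Ccnb1 (chr13:100778650-100786570, minus strand), the cyclin that activates Cdk1 at mitotic entry, had 32.7, 35.4, 36.9 and 30.0 CPM with hairpin 2 and 28.4, 33.4, 27.1 and 26.2 CPM in control 2. The hairpin 2 library was higher in 4 of 4 pairs, although the groups overlapped. The log2 fold change was 0.23 (SE 0.095, adjusted p = 0.21), and with the block it was 0.22 (adjusted p = 0.035). The median of the other genes on chromosome 13 was 0.19 in the same comparison, and taking it off left 0.04. Of the 50-base stretches of Ccnb1, 23.4% also lie in other genes, chiefly Ccnb1-ps, so its counts are uncertain. Its partner Cdk1 had -0.09, the second B cyclin Ccnb2 -0.06, and Ccna2, the A cyclin of S phase and mitotic entry, 0.05. The mitotic kinases Plk1 and Aurka had -0.02 and -0.12, and Tpx2, which activates Aurka on the spindle, had -0.08.

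No gene of the 4 passenger complex genes or the 6 condensin and chromosome structure genes passed with hairpin 2, with or without the block. Aurkb, the kinase that corrects faulty attachments, had a log2 fold change of -0.01 (95% interval -0.22 to 0.19). Its scaffold Incenp had -0.13, and the centromere-targeting subunits Birc5 and Cdca8 had -0.05 and -0.04. The condensin subunits shared by both condensins, Smc2 and Smc4, had 0.05 and 0.06, and the condensin I subunits Ncapd2, Ncapg and Ncaph had -0.10, 0.11 and -0.04. Top2a, which untangles sister DNA, had -0.05 (95% interval -0.26 to 0.16).

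**Figure D2:**
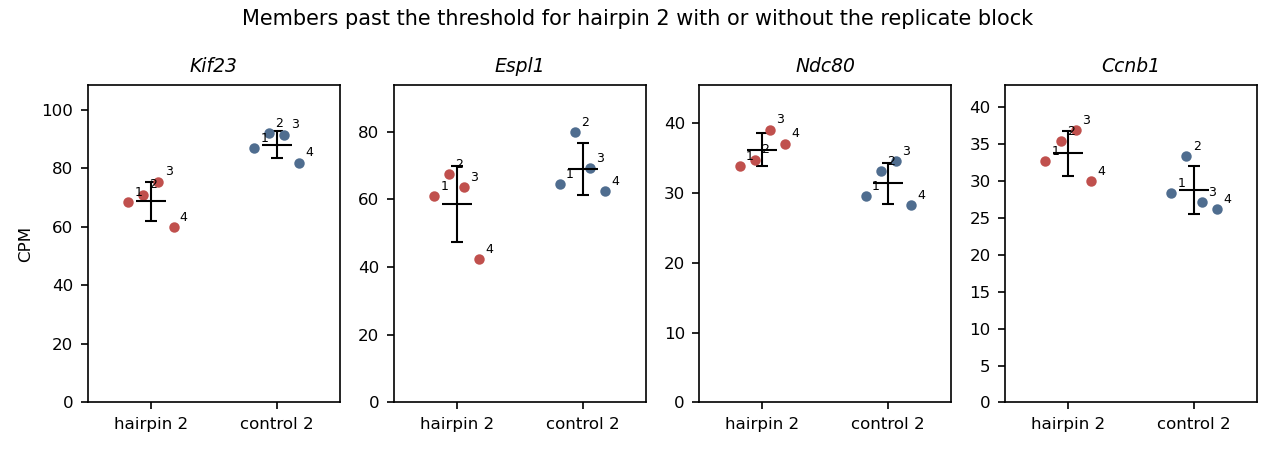
CPM in each library for the 4 genes that passed with or without the replicate block, with hairpin 2 in red on the left and control 2 in blue on the right of each panel; bars give mean and SD and the digits give the replicate number. The Kif23 libraries of the 2 groups do not overlap, while those of Espl1, Ndc80 and Ccnb1 do.

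Some epithelial markers also differed in the comparison that gave the Kif23 call, in which 4.01% of all genes tested fell and 2.04% rose. Of the 12 enterocyte markers, 6 were tested and 4 fell with hairpin 2, and their summed level was 320 to 381 CPM with hairpin 2 and 441 to 474 CPM in control 2. Of the 12 goblet cell markers, 11 were tested and 4 fell, with sums of 171 to 281 CPM with hairpin 2 and 219 to 382 CPM in control 2. Of the 11 stem cell markers, 10 were tested and 4 fell, with sums of 2710 to 3060 CPM with hairpin 2 and 2690 to 3050 CPM in control 2. None of the 5 Paneth cell markers tested passed, nor did the 1 enteroendocrine marker tested. Of the 8 fibroblast markers, 3 were tested. Pdgfrb fell, with 0.178, 0.118, 0.216 and 0 CPM with hairpin 2 and 0.954, 1.65, 0.764 and 2.41 CPM in control 2 (log2 fold change -3.41, adjusted p = 0.0073). Pdgfra rose, with 15.3, 14.9, 14.1 and 13.7 CPM with hairpin 2 and 9.77, 9.92, 11.3 and 8.83 CPM in control 2 (log2 fold change 0.55, adjusted p = 0.0094). Fewer cells of a type and less RNA per cell cannot be told apart in bulk RNA, and the part of these differences in the Kif23 result was not tested.

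The promoters of these genes shared short sequence elements. A RefSeq promoter (GRCm38.p6), 250 bases before to 50 bases after the start, was found for 31 of the 38 genes, with 34 promoters in all. The CHR element TTTGAA, read on both strands, occurred in 76.5% of these promoters and in 17.9% of all 32851 promoters of the same length. The variant TTTAAA, which reads the same on both strands, occurred in 26.5% of them and in 13.2% of all promoters. The CCAAT box, read on both strands as CCAAT or ATTGG, occurred in 79.4% of them and in 37.4% of all promoters. A CHR of either kind together with a CCAAT box stood in 76.5% of them and in 10.7% of all promoters. A match is a description of letters and not a bound site. The promoters of the 4 genes that passed with hairpin 2, with or without the block, are printed below. They run 5′ to 3′ on the gene's strand, with matches in capitals. Kif23 and Espl1 were lower and Ndc80 and Ccnb1 higher, and 4 genes cannot show whether the elements go with direction. Kif23 lies at chr9:61946750-61947049 (minus strand), Espl1 at chr15:102296043-102296342 (plus strand), Ndc80 at chr17:71526808-71527107 (minus strand) and Ccnb1 at chr13:100786437-100786736 (minus strand).
Kif23: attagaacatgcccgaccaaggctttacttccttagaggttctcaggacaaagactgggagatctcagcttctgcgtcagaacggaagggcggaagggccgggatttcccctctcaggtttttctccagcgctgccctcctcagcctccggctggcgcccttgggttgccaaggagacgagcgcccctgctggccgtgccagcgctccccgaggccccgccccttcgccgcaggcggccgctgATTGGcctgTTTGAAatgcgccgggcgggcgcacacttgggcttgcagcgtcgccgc
Espl1: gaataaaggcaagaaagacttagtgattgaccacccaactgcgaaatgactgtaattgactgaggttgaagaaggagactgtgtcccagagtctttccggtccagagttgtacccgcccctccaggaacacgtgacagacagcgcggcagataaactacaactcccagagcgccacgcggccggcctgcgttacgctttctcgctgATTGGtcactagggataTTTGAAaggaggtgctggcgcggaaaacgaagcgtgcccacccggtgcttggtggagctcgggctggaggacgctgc
Ndc80: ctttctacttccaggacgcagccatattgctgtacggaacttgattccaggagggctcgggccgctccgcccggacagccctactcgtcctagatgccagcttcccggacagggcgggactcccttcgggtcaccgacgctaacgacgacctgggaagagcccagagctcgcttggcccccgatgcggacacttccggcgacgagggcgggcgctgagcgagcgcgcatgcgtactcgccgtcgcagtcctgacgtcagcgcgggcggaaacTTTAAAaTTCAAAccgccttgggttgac
Ccnb1: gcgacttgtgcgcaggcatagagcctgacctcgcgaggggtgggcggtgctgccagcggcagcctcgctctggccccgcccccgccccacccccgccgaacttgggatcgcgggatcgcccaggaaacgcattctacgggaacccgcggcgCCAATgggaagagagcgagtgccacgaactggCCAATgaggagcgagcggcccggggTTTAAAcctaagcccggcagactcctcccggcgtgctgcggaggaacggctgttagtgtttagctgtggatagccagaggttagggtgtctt

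Kif23 and Espl1 had 1 CCAAT box each, read as ATTGG, followed by TTTGAA. Ndc80 had TTTAAA closely followed by TTTGAA on the other strand, and no CCAAT box. Ccnb1 had 2 CCAAT boxes and TTTAAA. The median log2 fold change with hairpin 2 was -0.05 over the 23 genes with a CHR and a CCAAT box and -0.04 over the 8 genes without that combination. With hairpin 1 the medians were 0.14 over those 23 genes and 0.22 over those 8.

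With hairpin 1, none of the 38 genes passed, and neither did any of the 13540 genes tested (0%). At an unadjusted p under 0.05 stood 1 of the 38 genes (2.63%) and 733 of all genes (5.41%). DESeq2 called 22 genes and voom with library weights 8, and none of the 38 was among them. The log2 fold changes of the 38 genes ran from -0.50 to 0.61 with a median of 0.14, against 0.03 over all genes tested, and 25 lay above 0 and 13 below. The standard errors ran from 0.164 to 0.427. The 95% intervals lay within 1 of 0 for 32 of the 38 genes but within 0.5 of 0 for 1 of them. The groups did not overlap for 3 of the 38 genes (7.89%), against 12.8% of all genes.

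The lean of the median above 0 with hairpin 1 rested on 1 control library. Control 1 replicate 1 was the lowest library of its set for 23 of the 38 genes. Without it the median was 0.02, while leaving out any other library of the set gave 0.12 to 0.23.

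Among the 38 genes, the smallest p with hairpin 1 was that of Ncapd2 (chr6:125168007-125191701, minus strand), a regulatory subunit of condensin I. It had 108, 144 and 146 CPM with hairpin 1 and 166, 182 and 204 CPM in control 1. The groups did not overlap, and the log2 fold change was -0.47 (SE 0.197, adjusted p = 0.80). Incenp (chr19:9872296-9899551, minus strand), the scaffold of the passenger complex, had 199, 180 and 188 CPM with hairpin 1 and 224, 235 and 347 CPM in control 1. These groups did not overlap either, with a log2 fold change of -0.50 (SE 0.221, adjusted p = 0.80), and control 1 replicate 3 was the library that set the control mean high. Mad2l1 (chr6:66535390-66547220, plus strand), the checkpoint protein that sequesters Cdc20, had 73.9, 120 and 126 CPM with hairpin 1 and 58.8, 90.8 and 60.3 CPM in control 1. Here the groups overlapped, and the log2 fold change was 0.61 (SE 0.281, adjusted p = 0.80).

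By role, the hairpin 1 medians were 0.19 for mitotic entry, 0.13 for the checkpoint and anaphase genes, 0.16 for kinetochore and centromere genes, 0.15 for condensin and chromosome structure, and 0.17 for motors and cytokinesis. The passenger complex had a median of -0.17, with Incenp and Cdca8 at -0.50 and -0.27, Birc5 at -0.06 and Aurkb at 0.08. The 1 gene of the 38 with hairpin 1 libraries all above the controls was Ncaph of condensin I, with 94.9, 94.9 and 101 CPM against 76.2, 88.3 and 77.4 CPM in control 1 and a log2 fold change of 0.27 (adjusted p = 0.80). Kif23 had 86.4, 95.8 and 109 CPM with hairpin 1 and 49.9, 98.8 and 103 CPM in control 1, with a log2 fold change of 0.21 (95% interval -0.48 to 0.90). The estimate thus lay above 0 with hairpin 1 and below 0 with hairpin 2.

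The difference between the hairpins was tested in a model of all 14 libraries. None of the 38 genes passed, against 52 of 12384 genes tested (0.420%). The smallest adjusted p was 0.33, for Mad2l1, whose log2 change was 0.64 lower with hairpin 2 than with hairpin 1 (difference -0.64, SE 0.254). Without hairpin 1 replicate 1 that difference was -0.87 and passed, with an adjusted p of 0.018. For Kif23 the difference was -0.58 (95% interval -1.16 to 0.01, adjusted p = 0.42), and it did not pass.

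In set 2 most of the 38 genes were lower in replicate 4 than in the other replicates, in both groups. In hairpin 2 replicate 4, 34 of the 38 genes lay below the mean of replicates 1 to 3, with a median log2 difference of -0.30. In control 2 replicate 4 it was 36 of 38, with a median of -0.27. Over genes that averaged 5 CPM or more, the same median was -0.02 in both groups. The lowest library of the set was hairpin 2 replicate 4 for 23 of the 38 genes and control 2 replicate 4 for 12. The steepest values were -0.81 for Smc2 and -0.80 for Kif20a in the hairpin 2 library, and -0.62 for Spc25 and -0.61 for Smc2 in the control 2 library. A few genes stood outside this, such as Prc1 with 0.17 in the hairpin 2 library and Pttg1 with 0.17 in the control 2 library.

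Genes that mark or drive division lay low in the same libraries. Mki67, a marker of dividing cells, had 374, 508, 461 and 226 CPM with hairpin 2 and 434, 494, 492 and 299 CPM in control 2. Foxm1, which encodes a transcription factor of the late cell cycle, had 79.6, 86.9, 83.2 and 64.6 CPM with hairpin 2 and 76.3, 82.8, 74.7 and 59.2 CPM in control 2. Mybl2, which encodes B-Myb, had 28.9, 31.2, 28.8 and 19.8 CPM with hairpin 2 and 28.6, 32.3, 28.1 and 21.2 CPM in control 2. In each case replicate 4 was the lowest of its group, and neither hairpin effect passed for these genes. The 12 goblet markers summed to 281 CPM in hairpin 2 replicate 4, against 171 to 208 CPM in replicates 1 to 3, and to 382 CPM in control 2 replicate 4, against 219 to 251 CPM. The 6 Paneth cell markers listed in set 2 summed to 604 CPM against 319 to 393 CPM in hairpin 2, and to 484 CPM against 300 to 336 CPM in control 2. The 10 stem cell markers listed were lower in replicate 4. They summed to 2710 against 2980 to 3060 CPM in hairpin 2, and to 2690 against 2970 to 3050 CPM in control 2. The 10 enterocyte markers listed summed to 320 against 369 to 381 CPM in hairpin 2. In control 2 replicate 4 they summed to 462 CPM, within the 441 to 474 CPM of the others. The 7 cyclin-dependent kinase inhibitors summed to 668 against 749 to 812 CPM in hairpin 2, and to 639 against 687 to 725 CPM in control 2. The depth of hairpin 2 replicate 4 was 11956927 counts and that of control 2 replicate 4 was 25026350 counts. The part of these differences in the levels of the 38 genes was not tested.

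The hairpin 2 effect within each pair was small beside these values. The median log2 ratio of the 38 genes, hairpin 2 over control 2, was 0.01 in pair 1, -0.10 in pair 2, -0.03 in pair 3 and -0.08 in pair 4. For 33 of the 38 genes the hairpin 2 change was smaller than the pooled SD of log2 CPM between replicates, which had a median of 0.17 and includes the shift of replicate 4 that both groups share. Within pairs, 10 of the 38 genes were lower with hairpin 2 in all 4 pairs (26.3%) and 5 were higher in all 4 (13.2%), against 20.1% and 20.5% of all genes tested. In set 1 the change was smaller than the pooled SD for 27 of the 38 genes, with a median SD of 0.32. Without both replicate 4 libraries, Kif23 and Ccnb1 passed with hairpin 2. These 2 of the 38 stand against 2396 of all 14137 genes tested in that fit. The median over the 38 was again -0.04 there.

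**Figure D3:**
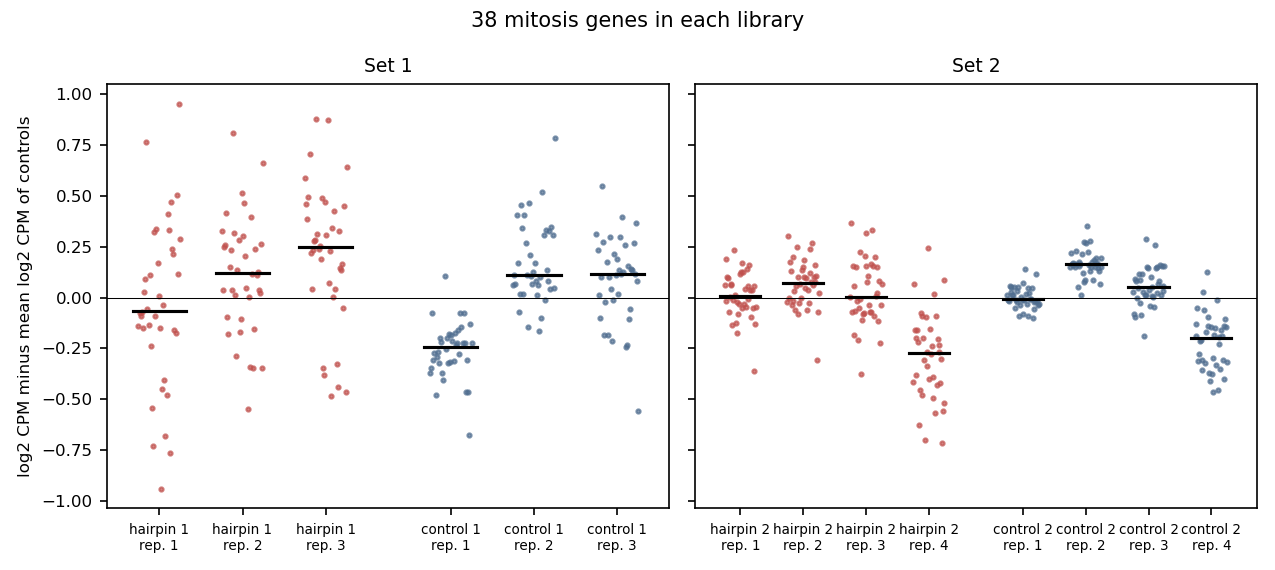
Log2 CPM of each of the 38 genes (points) in each library minus its mean over the controls of the set, with hairpin libraries in red left of control libraries in blue and the median as a bar. The replicate 4 libraries of set 2 lie low in both groups, with medians of -0.27 with hairpin 2 and -0.20 in control 2, and control 1 replicate 1 lies low in set 1 at -0.24.

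**Figure D4:**
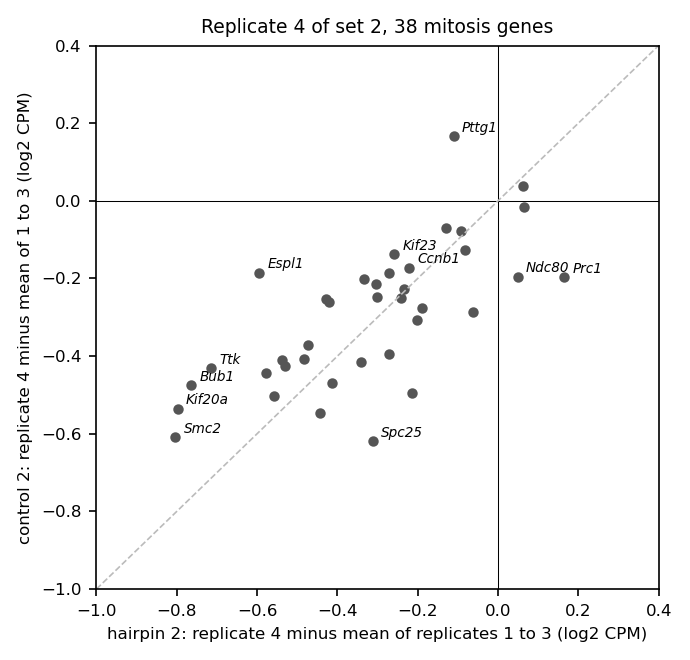
Replicate 4 minus the mean of replicates 1 to 3 in log2 CPM for each of the 38 genes, with hairpin 2 on the horizontal axis and control 2 on the vertical axis; the dashed line marks equal values. Most genes lie in the lower left, below 0 in both groups. Prc1, Ndc80, Cdca8 and Pttg1 lie above 0 in 1 of them, and Bub3 lies above 0 in both.

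The 38 genes were set beside the chromosome-wide shifts of the series. With hairpin 2 the median log2 fold change of the other genes was 0.12 on chromosome 5, 0.13 on chromosome 12 and 0.19 on chromosome 13, and it lay between -0.03 and 0.06 on every other chromosome. Of the 38 genes, 3 lie on chromosomes 5, 12 and 13, and the other 35 had a median of -0.05. Ccnb1 on chromosome 13 was close to its chromosome's median, as described. Ncapg, on chromosome 5, had a log2 fold change of 0.11, beside its chromosome's 0.12. Cenpa, also on chromosome 5, had -0.03 and lay below it. Ncapg shares 11.8% of its 50-base stretches with Lcorl. Taking off the chromosome medians left the median of the 38 genes at -0.04 with hairpin 2, and gave 0.08 with hairpin 1. In set 1 the widest shifts were those of hairpin 1 replicate 1, at 0.67 on chromosome 12 and -0.69 on chromosome 14, and none of the 38 genes lies on either.

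A wider catalogue of 142 mitosis genes in 6 lists, none of them among the 38, was read in the same way. With hairpin 2 and without the block, 3 of them rose (2.11%) and 1 fell (0.704%), against 2.04% and 4.01% of all genes tested, so the share that rose was near that of all genes and the share that fell was below it. Nek6 and Nek7, kinases of spindle assembly, passed in opposite directions. Nek6, on chromosome 2, had 24.4, 27.6, 25.2 and 22.7 CPM with hairpin 2 and 31.7, 34.0, 30.6 and 32.5 CPM in control 2, with a log2 fold change of -0.36 (adjusted p = 0.020). Nek7, on chromosome 1, had 54.4, 54.6, 60.5 and 63.2 CPM with hairpin 2 and 47.5, 48.5, 49.4 and 49.4 CPM in control 2, with a log2 fold change of 0.25 (adjusted p = 0.049). Neither gene's groups overlapped. Nek9, the kinase that activates both, lies on chromosome 12 and had 169, 170, 165 and 176 CPM with hairpin 2 and 148, 145, 153 and 151 CPM in control 2. Its log2 fold change of 0.19 passed (adjusted p = 0.045). Anapc7, a subunit of the anaphase promoting complex on chromosome 5, had 122, 121, 117 and 128 CPM with hairpin 2 and 107, 103, 98.2 and 111 CPM in control 2, with a log2 fold change of 0.22 (adjusted p = 0.046). None of the 4 calls held in every fit. Leaving out 1 library at a time, the call was lost in 4 of 8 fits for Nek6, 7 of 8 for Nek7, 7 of 8 for Nek9 and 6 of 8 for Anapc7, with estimates of the same sign. Without the filter on low counts the adjusted p was 0.055 for Nek7, 0.065 for Nek9 and 0.059 for Anapc7, and with DESeq2 size factors it was 0.051 for Nek7. All 4 genes passed in the DESeq2 test (adjusted p of 0.001 to 0.012) and in the edgeR fit with the replicate block (adjusted p of 0.0018 to 0.0071).

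With the replicate block, 15 of the 142 genes rose (10.6%) and 13 fell (9.15%), near the 10.2% and 10.1% of all genes tested. The calls were also split by chromosome, setting apart chromosomes 5, 12 and 13, whose medians were raised in this same comparison. More rises there are therefore built into the split. Without the block, 2 of the 23 catalogue genes on these chromosomes rose with hairpin 2 (8.7%), against 6.6% of all genes there. With the block, 12 of the 23 rose (52.2%) and none fell, while 28.3% of all genes there rose and 3.37% fell. On the other chromosomes 3 of 119 catalogue genes rose (2.52%) and 13 fell (10.9%), against 7.23% and 11.3% of all genes there. The genes on chromosome 5 that rose included the cohesin regulators Pds5b and Pds5a, with 0.31 (adjusted p = 0.00067) and 0.22 (adjusted p = 0.0024), and the anaphase promoting complex subunits Anapc4 and Anapc5, with 0.20 and 0.14. Mad1l1, the checkpoint partner of Mad2l1, rose by 0.21 and Lin54, the DNA-binding subunit of MuvB, by 0.17, both also on chromosome 5. On chromosomes 12 and 13 the condensin II subunit Ncapg2 rose by 0.19, the transcription factor gene E2f3 by 0.20, and Cks2, a small partner of cyclin-dependent kinases, by 0.35. The genes that fell lay elsewhere, among them Cep55 and Anln of cytokinesis, with -0.25 (adjusted p = 0.0039) and -0.17 (adjusted p = 0.042), the spindle gene Spag5 with -0.19, and E2f5 with -0.29. Rb1, on chromosome 14, was among the 3 that rose elsewhere, with 0.23 (adjusted p = 0.0056).

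**Figure D5:**
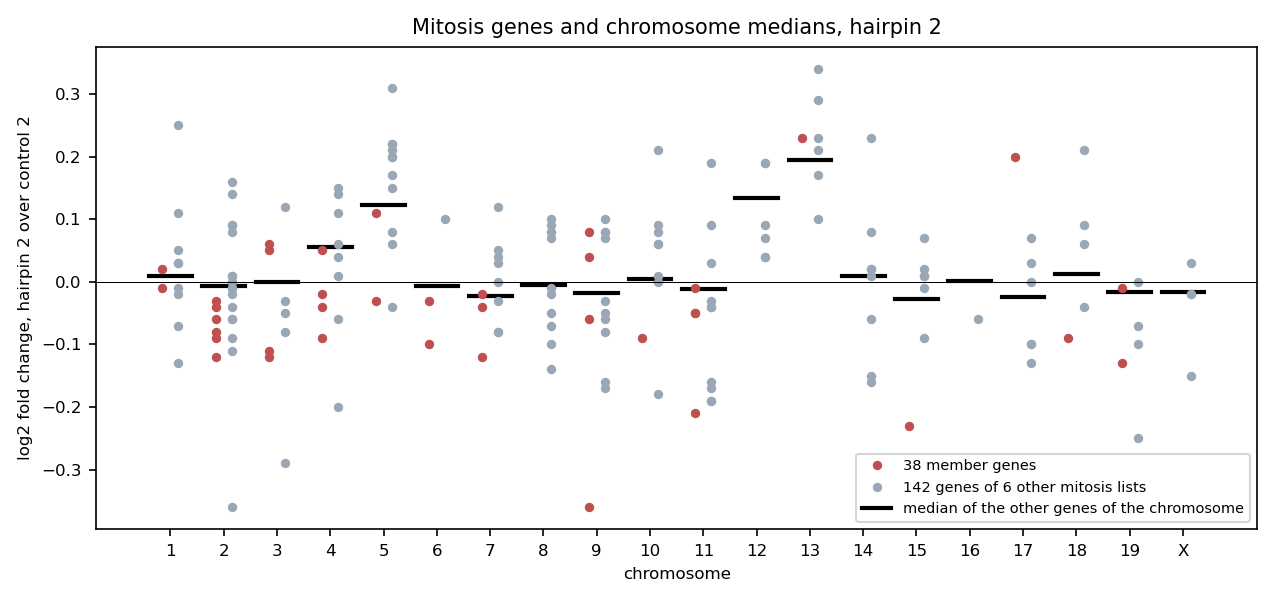
Log2 fold change, hairpin 2 over control 2, of the 38 genes (red) and of the 142 catalogue genes (grey) by chromosome, with the median of the other genes of each chromosome as a black bar. The bars of chromosomes 5, 12 and 13 stand at 0.12 to 0.19, and the points there lie around them. Ccnb1 is the red point on chromosome 13 and Kif23 the lowest red point, on chromosome 9.

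By list, the counts with the block stand beside the 10.2% of all genes tested that rose and the 10.1% that fell, and each list is too short for its share to be read closely. The spindle, centrosome and cytokinesis genes outside the 38 had 6 of 28 that fell and none that rose. The checkpoint and anaphase promoting complex list had 4 of 22 that rose and none that fell, and cohesin and condensin II had 3 of 18 that rose and none that fell. The regulators of the mitotic programme had 3 of 23 that rose and 2 that fell, the kinases, phosphatases and their regulators 3 of 19 and 2, and the kinetochore and centromere list 2 of 32 and 3. With hairpin 1 none of the 142 genes passed. The smallest p there were those of the condensin II gene Ncapg2, with 91.0, 68.5 and 68.1 CPM with hairpin 1 and 42.1, 58.3 and 41.6 CPM in control 1, and of Cenpb, which binds centromeric satellite DNA, with 303, 300 and 346 CPM with hairpin 1 and 467, 414 and 469 CPM in control 1. Neither gene's groups overlapped, and both had an adjusted p of 0.80, with log2 fold changes of 0.68 and -0.51.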

How the data were processed

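Each deposited file holds the raw counts per gene of 1 library as whole numbers, and nothing in the values points to a normalization by the authors. Per the submitters' processing notes, the tools were bcl2fastq 2.20, FastQC, STAR, featureCounts and DESeq2, on GRCm38, with no roles stated; settings were not given in the sources used here. Libraries were poly(A) and stranded, per the labels' protocols. GENCODE M21 gave a symbol for 55240 listed genes in set 1 and 17471 in set 2.

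CPM are counts over TMM-scaled totals. Each set was tested alone over all genes that passed filterByExpr, by the quasi-likelihood method of edgeR 4.0.16 in R 4.3.3, with Benjamini-Hochberg adjustment over all genes tested and a threshold of 0.05. All adjusted p-values come from edgeR unless another tool is named. A model of 4 groups gave the difference between hairpins over genes that passed in both sets. Alternatives were DESeq2 1.42.0, voom with library weights (limma 3.58.1), no filter, DESeq2 size factors, the replicate block, leaving out libraries, and chromosome medians over genes averaging 5 CPM or more. The 38 genes, their roles, the other lists, the tests and the alternatives were chosen with earlier results of these data known. On simulated data with 2-fold changes in 200 genes, the method recovered 100% for hairpin 1, 100% for hairpin 2 and 85.8% for the difference. Only well-counted genes were changed there, all genes had the same spread, and no library stood apart. These shares therefore do not tell how often smaller changes would be found in the real libraries. Genes given in every library are those of the 38 past the threshold with or without the block, the 3 of smallest p with hairpin 1, and genes among the 4 of smallest p in each other list, with Mki67, Foxm1, Mybl2 and Kmt5c always given; Bub3, Ncaph, Vwf, Cdh5, Pdgfra and Pdgfrb were added after their values were seen.

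Replicate numbers were checked by correlating the deviations of libraries from their group means. In set 2 the same-number correlations were 0.508, 0.369, 0.561 and 0.772. Each is above 0.1, the limit set for using the block. Different numbers among replicates 1 to 3 gave 0.261 to 0.393, also above that limit, and replicate 4 against another number -0.597 to -0.468. The check thus matched the replicate 4 libraries and could not show that replicates 1 to 3 pair by number. The pairing comes from the data, chiefly from replicate 4, and not from the labels. The fit without the block remains the main one, and the blocked value is given where it changes a call. No pair of libraries within a group agreed within sampling noise. Shared sequence was counted as 50-base stretches of annotated transcripts found in another gene, on either strand.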

Additional observations from a re-analysis of the deposited data

Results flagged for a closer look

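In 5 of the 76 sets of 4 hairpin 2 or control 2 values, 1 for each gene and group, a single library stood far from its group, and all 5 were replicate 4 libraries. Chance gives about 1 in 20, so the count is near that share. The genes also vary together across these libraries and are not separate tests. Ttk had 21.8 CPM in hairpin 2 replicate 4, against 35.5 to 36.1 CPM in the other hairpin 2 libraries. Nuf2 had 27.7 CPM there, against 39.9 to 41.7 CPM, and Incenp 106 CPM, against 132 to 136 CPM. Kif20a had 42.4 CPM in hairpin 2 replicate 4, against 72.5 to 74.9 CPM, and 52.7 CPM in control 2 replicate 4, against 75.3 to 77.5 CPM. The values lie with the low levels of most of the 38 genes in these libraries, whose cause was not tested.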

How the results depend on the processing

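For hairpin 2, where 854 genes and 1 of the 38 passed, DESeq2 called 1346 genes, voom with library weights 2466 and the fit without both replicate 4 libraries 2396. Leaving out 1 library gave 453 to 1409 genes, the highest without hairpin 2 replicate 4, and 0 to 1 of the 38. The 1 was Kif23, lost without control 2 replicates 1, 2 or 3 and without hairpin 2 replicates 1 or 2. Without both replicate 4 libraries, 2 of the 38 passed. The replicate block in set 2, where the pairing rests chiefly on replicate 4, gave 2880 genes and 4 of the 38. In set 1 the same-number correlations were 0.291, -0.002 and 0.343, not all above 0.1, and the block gave 0 genes. For hairpin 1, where 0 genes passed, DESeq2 called 22, voom 8, and leaving out 1 library 0 to 1, the 1 without hairpin 1 replicate 1. For the difference between hairpins, leaving out 1 library called 0 to 1 of the 38, Mad2l1 without hairpin 1 replicate 1. The median over the 38 ran from 0.016 to 0.225 for hairpin 1 and from -0.107 to 0.016 for hairpin 2, and was 0.077 and -0.044 with chromosome medians taken off. The cause of these changes was not tested, and no result listed reversed a call. The number of libraries and their spread limit the precision, and the intervals were wider in set 1.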

Other observations

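The cyclin-dependent kinase inhibitors, which hold cells out of division, had estimates above 0 for 7 of 7 genes with hairpin 2, against 7218 of all 14126 genes tested, with a median log2 fold change of 0.18, and none passed without the replicate block. With the block 2 of 7 passed, both higher, against 10.2% of all genes tested that rose. Cdkn2a had 136, 136, 140 and 141 CPM with hairpin 2 and 122, 118, 111 and 131 CPM in control 2, with no overlap and a log2 fold change of 0.20 (adjusted p = 0.079, and 0.0098 with the block). Cdkn1b had 201, 192, 227 and 237 CPM with hairpin 2 and 189, 183, 195 and 190 CPM in control 2, with a log2 fold change of 0.18 (adjusted p = 0.19, and 0.026 with the block). With hairpin 1 Cdkn1b had 63.1, 65.2 and 49.0 CPM and control 1 had 40.5, 42.8 and 36.2 CPM, with a log2 fold change of 0.57 (adjusted p = 0.80). Over the 7 inhibitors, 5 had estimates above 0 with hairpin 1, the lowest was -0.39, and none passed. Their summed level was 396, 202 and 193 CPM with hairpin 1 and 270, 204 and 235 CPM in control 1.

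Among 7 genes of DNA replication and proliferation outside the 38, 2 rose with hairpin 2 with the block, against 10.2% of all genes tested, and none without it. Those 2 were the only ones of the 7 with estimates above 0. The median log2 fold change of the 7 was -0.05, with a lowest of -0.13. Tyms, the thymidylate synthase gene on chromosome 5, had 55.5, 60.8, 55.8 and 32.5 CPM with hairpin 2 and 41.4, 46.8, 46.7 and 28.2 CPM in control 2 (log2 fold change 0.33, adjusted p = 0.41, and 0.0017 with the block). Rrm2, a ribonucleotide reductase subunit gene on chromosome 12, had 119, 123, 133 and 66.3 CPM with hairpin 2 and 103, 115, 110 and 60.1 CPM in control 2 (log2 fold change 0.19, adjusted p = 0.73, and 0.015 with the block). Both lie on chromosomes with raised medians. In both genes replicate 4 was the lowest library of each group.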
